A study of Bos taurus with 12 samples.

Results

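TNS4, UPK1B, MSLN and KRT7 are 4 of the 13930 genes counted in endometrial biopsies of grazing dairy cows (Bos taurus). They were picked by name because their counts fall from the class titled ANE to the class titled SO, so their values in those 2 classes are given as a description and carry no test. All 4 passed the filter on low counts that left 10959 genes for testing. The biopsies, of the lining of the uterus, were sorted by the progesterone recorded on day 4 of the estrous cycle, when the corpus luteum is forming. There were 12 libraries of polyadenylated RNA, 3 in each class. The very low class (ANE) lay below 0.25 ng/ml. The low class (LPP4) lay below 1.4, a bound that its label gives in mg/dl. The high class (HPP4) lay above 2.5 ng/ml, and the SO libraries, called very high here, lay above 20 ng/ml. The sources used here do not spell out the title codes, do not say whether ANE and SO differ from the other classes in more than progesterone, and do not say whether the 3 replicates are 3 cows. P-values therefore measure the spread between these samples, which may in part be technical.

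The 4 proteins sit at different places in an epithelial cell. TNS4, tensin 4 or Cten, is a short tensin of focal adhesions that binds the tails of beta integrins and lacks the actin-binding part of its longer relatives. KRT7, keratin 7, is a type II keratin of simple epithelia that pairs with a type I keratin to build intermediate filaments. UPK1B, uroplakin 1B, is a tetraspanin of the apical membrane, known best from the plaques of the bladder lining. MSLN, mesothelin, is a glycoprotein held on the cell surface by a lipid anchor, is made by mesothelial cells and some epithelia, and binds the mucin MUC16. In the uterus the epithelium lines the lumen and the glands, and it is the layer a conceptus first meets. Whole biopsies do not show which cells held the RNA, so a place at the surface was not measured, and fewer cells of a type and less RNA per cell cannot be told apart.

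The libraries held 3772564 to 8379489 counted reads, and very low replicate 2 was the smallest. Levels are CPM, read counts scaled to library size after TMM correction. They are compared between libraries for 1 gene and not between genes, since transcript lengths were not used. Very low replicate 1 stands apart in its tissue make-up. Its epithelial score, the mean log2 CPM of 20 epithelial core genes such as EPCAM and CLDN7, was 3.05, against 5.98 to 7.87 in the other 11 libraries. Its smooth muscle score, the mean over 12 markers, was 11.1. That score was 3.68 to 5.17 in the other very low and the low libraries, and at least 8.64 in each high and very high one.

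TNS4 covered the widest range of the 4 genes, 605-fold between its lowest and highest library. It stood at 1.59, 79.8 and 18.6 CPM in very low replicates 1, 2 and 3. The low libraries had 6.46, 7.55 and 17.7 CPM, the high libraries 4.70, 1.02 and 4.64 CPM. In the very high libraries it was near its detection limit, at 0.343, 0.499 and 0.132 CPM, from 3, 4 and 1 reads. Very low replicate 1 lay inside the range of the high class, and every very high library lay below the other 9. The class means were 33.3 ± 41.1, 10.6 ± 6.17, 3.45 ± 2.11 and 0.325 ± 0.184 CPM (SD, n = 3 each) in the order very low, low, high and very high. The very low and low ranges overlapped, whereas low and high, and high and very high, did not. The share of all genes whose high and very high ranges lay apart was not computed. The very high libraries also took part in the choice of the gene.

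The few reads limit how well the last step is known. The 8 reads of the very high class against 77 in the high class give a ratio of 10.4, with an exact 95% Poisson interval from 5.001 to 24.8. Against the 461 reads of the very low class, 309 of them in replicate 2, the ratio was 81.4. It is given without an interval, since the gene was chosen on these 2 classes. The interval for the high class covers counting error alone, not the spread between libraries, and the very high libraries in it took part in the choice. TNS4 lies on chromosome 19, where 1 uncharacterised locus overlaps it in the RefSeq genes of ARS-UCD2.0, and with the strand setting of the counting unknown its reads could not be kept apart. No gene of that table overlaps UPK1B, MSLN or KRT7.

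UPK1B ranged 512-fold. Its levels were 49.1, 245.5 and 540.4 CPM in the very low libraries and 49.4, 39.5 and 208.8 CPM in the low libraries, replicates 1 to 3 in turn. The high libraries had 54.3, 7.14 and 38.9 CPM and the very high ones 3.32, 7.23 and 1.06 CPM. The class means of 278.3 ± 247, 99.3 ± 95.0, 33.5 ± 24.1 and 3.87 ± 3.12 CPM (SD, n = 3 each) stepped down from very low to very high, but neighbouring classes overlapped at all 3 steps. High replicate 2 was at the level of very high replicate 2. Within the low, high and very high classes it spread more than the other 3 genes: the highest low library had 5.28 times the level of the lowest, the highest high library 7.61 times and the highest very high library 6.85 times.

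MSLN, the mesothelin gene, had 49.1, 979.1 and 102.7 CPM in the very low libraries, 122.6, 248.3 and 279.2 CPM in the low, 43.7, 26.0 and 28.4 CPM in the high, and 12.2, 14.6 and 6.86 CPM in the very high ones. One library, very low replicate 2, set its peak. Its class means were 377.0 ± 522, 216.7 ± 83.0, 32.7 ± 9.63 and 11.2 ± 3.96 CPM (SD, n = 3 each), and the low, high and very high ranges did not touch. For the high and very high classes the share of all genes with such ranges was not computed. By the median the low class (248.3 CPM) stood above the very low class (102.7 CPM).

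KRT7 had the smallest range, 39.0-fold. Its levels were 22.1, 757.6 and 497.9 CPM in the very low libraries, 135.0, 215.6 and 241.0 CPM in the low, 60.0, 29.2 and 71.7 CPM in the high, and 33.5, 19.4 and 21.1 CPM in the very high ones. Very low replicate 1 lay within the very high range, so for this gene the extreme classes overlapped, while low and high did not. The means were 425.9 ± 373, 197.2 ± 55.4, 53.6 ± 22.0 and 24.7 ± 7.69 CPM (SD, n = 3 each).

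**Figure D1:**
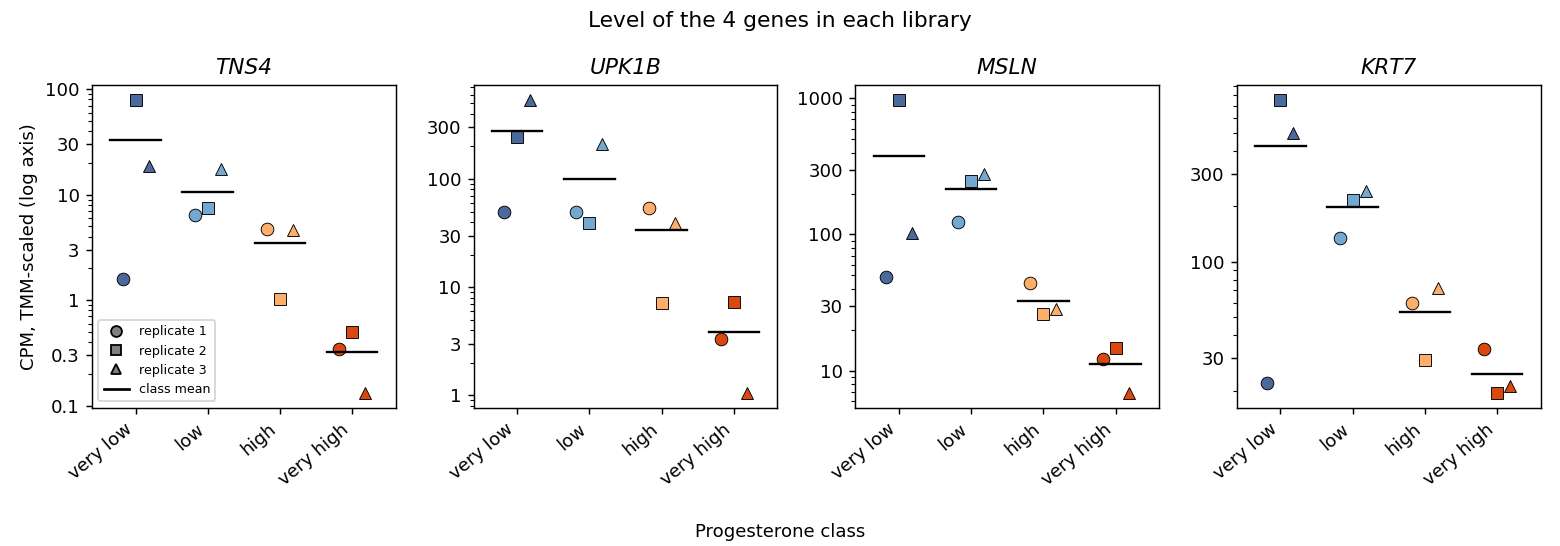
Level of each gene in each library, in CPM after TMM scaling on a log axis, by progesterone class. Symbols mark the replicate and bars the class mean of 3 libraries. Means step down from very low to very high in every panel, while very low replicate 1 lies far below the other very low libraries (22.1 CPM against 497.9 and 757.6 CPM for KRT7).

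The order of the means, very low above low above high above very high, was the same for the 4 genes. For UPK1B and KRT7 it was kept whichever single library was left out. Without very low replicate 2 the very low mean fell below the low mean for TNS4 (10.1 against 10.6 CPM) and MSLN (75.9 against 216.7 CPM). High replicate 2 was the lowest high library for each of the 4 genes, low replicate 3 the highest low library and very low replicate 1 the lowest very low library.

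The contrast of the high with the low class compares means of libraries on which the genes were not chosen. Its standard errors and p-values rest on a spread estimated over all 12 libraries, those of the choice included. All 4 estimates were lower in the high class, and none passed. MSLN had the largest log2 fold change, -2.73 ± 0.92 (SE, edgeR quasi-likelihood test, Benjamini-Hochberg adjusted p = 0.365). KRT7 followed at -1.88 ± 0.86 (SE, edgeR adjusted p = 0.488). TNS4 had -1.61 ± 1.04 and UPK1B -1.57 ± 0.99 (SE, edgeR adjusted p of 0.621 and 0.615). Without low replicate 3 these estimates were -1.02 for TNS4 and -0.41 for UPK1B. With a covariate for the smooth muscle score, which splits the low from the high libraries with no overlap, they were 1.71 for TNS4, 0.31 for UPK1B, 1.39 for KRT7 and -0.27 for MSLN. A fit of only the 6 high and low libraries gave smaller standard errors for MSLN (-2.73 ± 0.37) and KRT7 (-1.88 ± 0.38). None of the 4 genes passed there (edgeR adjusted p of 0.0596 for MSLN, 0.0993 for KRT7, 0.330 for TNS4 and 0.451 for UPK1B).

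No gene at all passed in this contrast (0 of 10959, 0%), although 1125 (10.3%) had an unadjusted p under 0.05 by edgeR, 6.11% with the high class lower, and 241 passed with DESeq2 and 0 with limma-voom. MSLN alone of the 4 genes was among the genes with an unadjusted p under 0.05. None of the 4 was among the 241, and MSLN came nearest (DESeq2 adjusted p = 0.0533). TNS4, MSLN and KRT7 had low and high ranges that did not overlap, with the high class below, as did 9.68% of all tested genes. An estimate as low as that of UPK1B or lower was found for 5.58% of them, and the median over all was -0.02.

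In the contrast that chose them, very high against very low, the fitted log2 differences were -6.59 ± 1.34 for TNS4, -6.16 ± 1.23 for UPK1B, -5.06 ± 1.02 for MSLN and -4.11 ± 0.94 for KRT7 (SE, a description with no test). Ranges did not overlap for TNS4, UPK1B and MSLN, as for 12.2% of tested genes that were lower in the very high class. Leaving out very low replicate 2 brought MSLN to -2.72 and TNS4 to -4.86. The genes split their fall differently over the steps. From the high to the very high class TNS4 had -3.33 and UPK1B -3.10, against -1.54 for MSLN and -1.12 for KRT7. The low class against the very low one had -1.65, -1.49, -0.80 and -1.11 in the same order of genes. These steps share libraries with the choice of the genes, so differences between the genes in them were not tested.

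**Figure D2:**
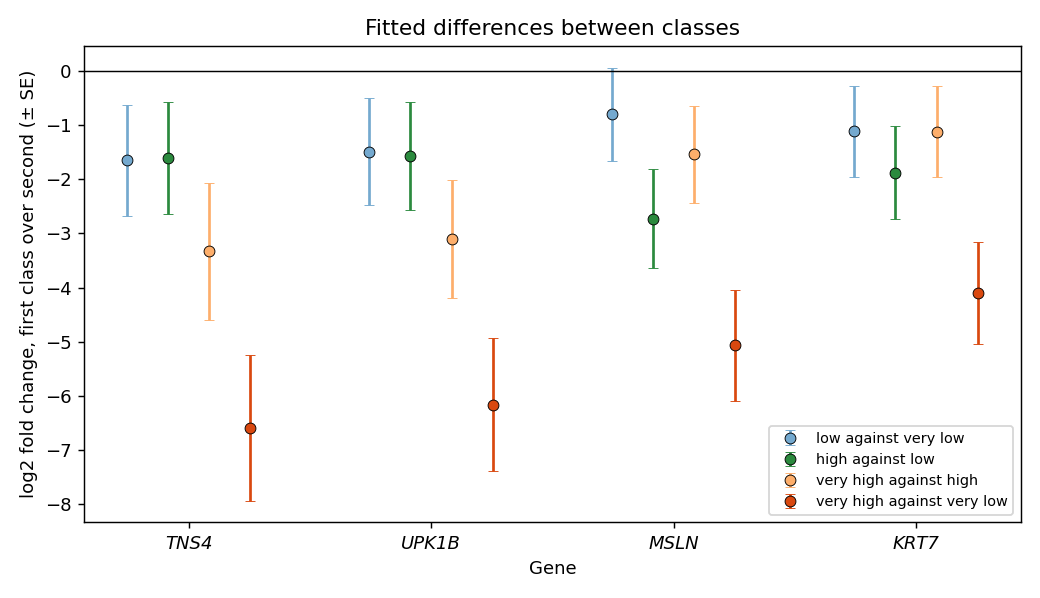
Fitted log2 fold change (first class over second, points) with its standard error (bars) for each gene in 4 contrasts. Every point lies below 0, and the step from high to very high is deeper for TNS4 (-3.33) and UPK1B (-3.10) than for MSLN (-1.54) and KRT7 (-1.12).

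Set against the epithelial core genes of the same library, the very low class closed up. The difference between the log2 CPM of a gene and the epithelial score was taken in each library. For KRT7 it was 1.43, 1.69 and 2.28 in very low replicates 1 to 3, with an SD of 0.43 in place of 2.78 for its log2 CPM. For TNS4 it was -2.15, -1.55 and -2.44, with an SD of 0.45 in place of 2.73. The low RNA level of both genes in very low replicate 1 thus went with a low level of epithelial core genes in that library. For UPK1B (SD 1.40 in place of 1.76) and MSLN (1.36 in place of 2.25) the spread shrank less. In the low class the same step widened the spread of all 4 genes, to an SD of 0.87 in place of 0.44 for KRT7 and 1.33 in place of 0.76 for TNS4. In the high class it narrowed the spread of each gene, and in the very high class of each but KRT7 (0.46 in place of 0.42). The closing up is thus a description of the very low class, which holds the library with the lowest score.

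On this scale the very high libraries lay below all very low libraries for each gene, KRT7 included (-2.13 to -1.22 against 1.43 to 2.28), as for 4.27% of all tested genes set against the score in this way. The means went from -2.05 to -7.04 for TNS4, from 1.68 to -4.54 for UPK1B, from 1.55 to -2.80 for MSLN and from 1.80 to -1.66 for KRT7, again as a description. The mean epithelial scores of the classes were 5.87 (SD 2.51), 6.65 (SD 0.62), 6.32 (SD 0.26) and 6.26 (SD 0.19) from very low to very high. Between low and high, MSLN (0.19 to 2.14 against -1.47 to -1.16) and KRT7 (0.33 to 1.93 against -1.30 to 0.0042) kept ranges that did not overlap, with the high class below, as did 2.03% of all tested genes. TNS4 and UPK1B overlapped. With the epithelial score as a covariate the high against low estimates were -1.59, -1.65, -2.61 and -1.70 for TNS4, UPK1B, MSLN and KRT7, and none passed (edgeR adjusted p from 0.111 to 0.427).

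**Figure D3:**
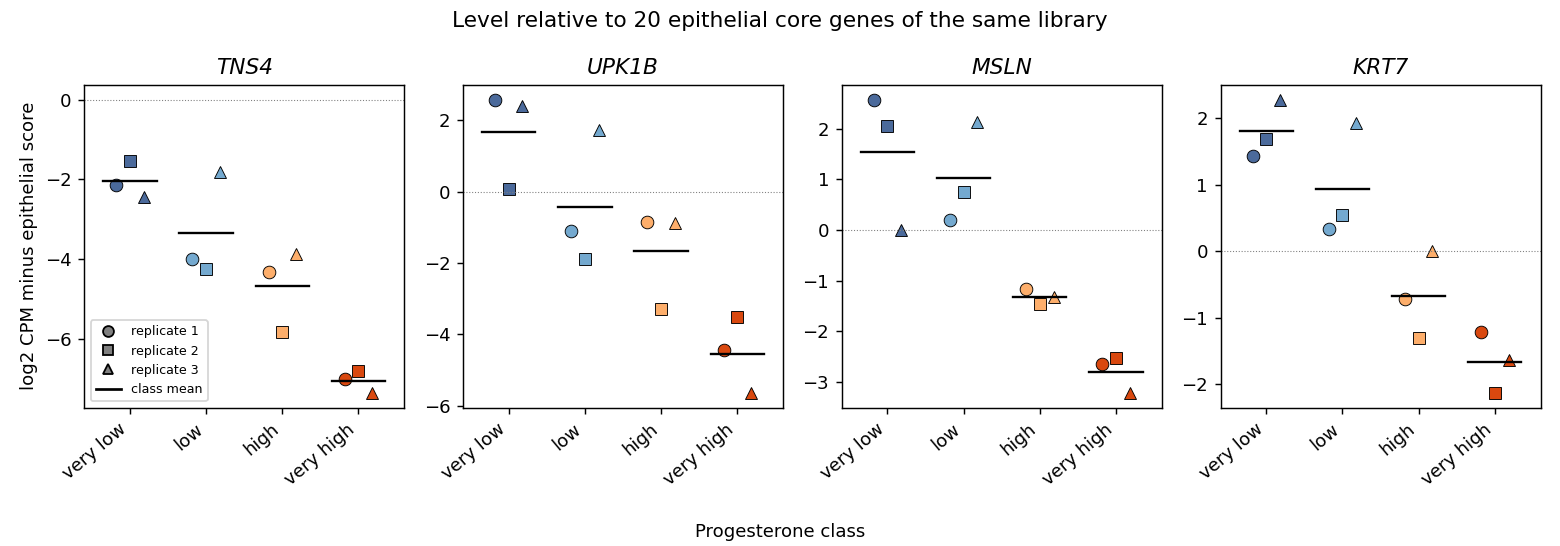
log2 CPM of each gene minus the epithelial score of the same library (mean log2 CPM of 20 epithelial core genes), by class, with replicates as symbols and class means as bars. Very low replicate 1 is the highest very low library for UPK1B and MSLN (2.58 each). It lies between the others for TNS4 (-2.15) and is the lowest for KRT7 (1.43). The very high libraries lie below all very low ones in every panel, while for KRT7 high replicate 2 (-1.30) lies below very high replicate 1 (-1.22).

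The genes did not keep fixed proportions to one another. TNS4 followed the mean profile of the 4 most closely, at a root mean square distance of 0.32 log2 units over the 12 libraries after centring. MSLN and KRT7 lay at 0.65 and 0.66, and UPK1B at 0.89. UPK1B and MSLN diverged most within the very low class. Both had 278 reads in replicate 1. Replicate 2 had 951 reads of UPK1B and 3793 of MSLN, replicate 3 had 4157 of UPK1B and 790 of MSLN, so their ratio went from 0.251 to 5.26 between these libraries. Across all 12 libraries the lowest ratio was 0.154, in very high replicate 3.

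KRT7 was read beside 3 other keratins of simple epithelia, KRT18, KRT8 and KRT19. KRT18, a type I keratin often paired with KRT8, had 189.2 ± 200, 244.2 ± 96.8, 188.5 ± 24.7 and 188.1 ± 46.2 CPM (SD, n = 3 each) from very low to very high. For each KRT18 read there were 1.89 to 3.79 KRT7 reads in the very low libraries, 0.453 to 1.82 in the low, 0.136 to 0.384 in the high and 0.0913 to 0.173 in the very high ones. Against KRT8, like KRT7 a type II keratin, the ratio went from 1.005 to 1.37 in the very low class down to 0.118 to 0.212 in the very high class. The ratio to KRT19, a type I keratin, was 0.260 to 0.768 in the very low libraries, 0.504 to 0.855 in the low, 0.345 to 0.483 in the high and 0.222 to 0.369 in the very high ones. In all 3 ratios the low and high ranges did not overlap, narrowly so for KRT19 (0.504 against 0.483). The very low and very high ranges, of the classes on which KRT7 was chosen, overlapped in the ratio to KRT19 alone. How many of all genes would show such ratio ranges was not computed. These 3 keratins were picked for ratios with the levels known.

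KRT19 itself had 636.0 ± 545, 328.3 ± 148, 123.9 ± 34.3 and 83.1 ± 10.8 CPM (SD, n = 3 each), in the same order of means as KRT7, and KRT8 379.2 ± 367, 284.7 ± 88.8, 184.2 ± 56.5 and 152.9 ± 14.5 CPM. Of 16 listed keratins other than KRT7, 11 were tested and none passed in either contrast. Their median log2 fold change was 0.29 for high against low (median of all genes -0.02) and -0.43 for very high against very low (-0.12). That second contrast called 1.52% of all genes, 0.411% as lower.

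The other uroplakins had unlike levels, and they are given together by a choice made after their values were seen. UPK2, the small partner of UPK1A in bladder plaques, was nearly level at 446.3 ± 39.8, 459.1 ± 24.9, 547.6 ± 42.8 and 522.4 ± 33.1 CPM (SD, n = 3 each). In very low replicate 1 it lay -0.08 log2 units from its mean, where EPCAM lay -3.60 from its own. Its reads thus did not follow the epithelial core genes in that library, and their source was not tested. UPK3B, also made by mesothelium, had 12.1 ± 9.51, 11.7 ± 4.70, 9.06 ± 2.95 and 10.1 ± 1.14 CPM. UPK1A, the closest relative of UPK1B, was low throughout and stood at 9.67 ± 7.74, 6.49 ± 3.95, 2.68 ± 1.28 and 1.92 ± 0.98 CPM. UPK3A, the partner of UPK1B in bladder plaques, was at 0 reads in 9 libraries and had at most 9 reads in any. Of 16 listed uroplakins and tetraspanins 14 were tested and none passed in either contrast (median log2 fold change -0.44 for high against low and -0.33 for very high against very low). The widely expressed tetraspanins CD63 and CD81 kept within 703.5 to 999.1 and 599.9 to 701.9 CPM in their class means. TSPAN1, a tetraspanin of secretory epithelia singled out after its values were seen, had 895.1 ± 1288, 618.5 ± 61.2, 81.8 ± 51.9 and 69.7 ± 10.6 CPM (SD, n = 3 each).

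Among apical glycoproteins 8 of 15 were tested, and all 8 estimates were below 0 in the high class (median log2 fold change -1.72), with none past the threshold. MUC16, the partner of mesothelin, was listed but not found under that symbol in the counts used here. PIGR, which carries IgA across the epithelium, had 1808 ± 2906, 1006 ± 497, 118.5 ± 68.5 and 65.2 ± 24.6 CPM (SD, n = 3 each), and ALPL, an alkaline phosphatase, had 199.5 ± 210, 506.2 ± 152, 420.8 ± 74.4 and 692.1 ± 374 CPM. The membrane mucin MUC1, looked up after its values were seen, had 432.6 ± 468, 346.6 ± 118, 115.6 ± 22.8 and 105.1 ± 56.1 CPM. Against very low, 5 of the 8 estimates in the very high class were below 0 (median -1.09) and none passed.

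The partners of TNS4 came from a list of tensins, integrins and focal adhesion proteins. Of the 17 listed 13 were tested and none passed, and 11 of the estimates were above 0 for high against low (median log2 fold change 0.52). In the contrast of the extreme classes 5 were above 0 and 8 below (median -0.10). ITGB6, the epithelial beta integrin, had 1001 ± 813, 663.7 ± 259, 518.0 ± 49.8 and 458.4 ± 19.8 CPM (SD, n = 3 each), the order of means that TNS4 had. TLN1, talin, which links integrins to actin, had 577.3 ± 293, 368.3 ± 69.5, 631.2 ± 96.0 and 541.7 ± 74.9 CPM. TNS1, the long tensin that is abundant in smooth muscle, was picked after its values were seen. It stood at 62.6 ± 56.3, 17.6 ± 12.0, 81.9 ± 13.2 and 70.2 ± 30.6 CPM, with low and high ranges that did not overlap. The high class lay above, and the share of all genes with such ranges was not computed. The smooth muscle scores above were also higher in the high than in the low class, and a link of TNS1 to them was not tested.

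Since mesothelium and bladder lining also make these proteins, their other markers were read in the same libraries. Of 12 mesothelium markers other than MSLN, 6 were in the count table and 5 were tested, and their score was 2.91 to 3.03 in the very low, 3.07 to 3.43 in the low, 3.16 to 3.47 in the high and 3.04 to 3.70 in the very high libraries. Their summed level was 51.1 to 60.1 CPM in the very low, 51.4 to 75.0 CPM in the low, 56.9 to 67.2 CPM in the high and 51.1 to 115.2 CPM in the very high libraries. The listed genes went both ways. PRG4, lubricin, had 14.1 ± 18.7, 4.13 ± 1.22, 11.9 ± 4.00 and 33.6 ± 21.1 CPM (SD, n = 3 each), and the membrane glycoprotein GPM6A had 17.6 ± 10.2, 28.3 ± 7.76, 28.4 ± 2.04 and 27.8 ± 12.8 CPM. UPK3B (above) and PDPN, podoplanin, had estimates below 0 in both contrasts. CALB2, calretinin, a defining marker, was at 0 in 4 libraries and had at most 7 reads in any, and its means of 0.97, 0.18, 0.13 and 0.042 CPM stood in the same order as those of the 4 genes.

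Of 9 bladder lining markers other than UPK1B, 8 were in the table and 4 were tested. Their score was 3.07 to 4.82 in the very low, 3.89 to 4.16 in the low, 3.095 to 3.53 in the high and 2.88 to 3.44 in the very high libraries, so it was lower in the high than in the low class with no overlap. How often a mean of 4 genes would part these classes was not computed. The summed level of these markers, mostly UPK2, was 422.9 to 513.9 CPM in the very low, 457.7 to 507.4 CPM in the low, 515.0 to 603.3 CPM in the high and 503.8 to 570.4 CPM in the very high libraries. The median log2 fold change was -0.82 for high against low and -1.23 for very high against very low, with 3 of 4 estimates below 0 in each. UPK2 was the 1 above 0, at 0.25 and 0.23. GATA3, a transcription factor of that lining, had 2.06 ± 1.80, 2.09 ± 1.05, 0.58 ± 0.54 and 0.42 ± 0.20 CPM (SD, n = 3 each). FOXA1, another, had 5.44 ± 8.93, 1.28 ± 2.22, 0.088 ± 0.076 and 0.044 ± 0.076 CPM, with at most 61 reads in any library and 0 in 5. PPARG was at 0 reads in all 12 libraries and KRT20 at 0 in 6. PDPN, CALB2, GATA3, FOXA1, PPARG and KRT20 were picked after their values were seen, and the part of either cell type in the levels of the 4 genes was not tested. No marker of either list passed in either contrast.

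Other marker lists moved beside the 4 genes, and their part in the result was not tested. All 10 leukocyte markers had estimates below 0 for high against low (median log2 fold change -1.74), with none past the threshold. For very high against very low 9 of 10 estimates were below 0 (median -1.93). In that contrast 9 had ranges that did not overlap, with the very high class below, as did 12.2% of all tested genes. Past the threshold were 2 of 10, both lower in the very high class, against 0.411% of all tested genes. These were CD68, of macrophages (83.0 ± 35.2 to 14.4 ± 3.64 CPM, log2 fold change -2.52, edgeR adjusted p = 0.0333), and the myeloid integrin ITGAM (14.5 ± 6.94 to 2.36 ± 0.83 CPM, -2.61, edgeR adjusted p = 0.0415; SD, n = 3 each). The call was lost in 8 of 21 alternative fits for CD68 and in 12 for ITGAM, for both without very low replicate 2 (edgeR adjusted p of 0.0578 and 0.0733), and the log2 fold changes over all fits ran from -2.73 to -2.09 and from -2.89 to -2.14. The leukocyte score was 5.34 to 6.80 in the very low, 5.04 to 6.47 in the low, 3.73 to 4.96 in the high and 4.06 to 4.26 in the very high libraries. The score of 6 neutrophil markers was 5.09 to 5.24 in the low and 2.02 to 3.27 in the high class, 1.67 to 7.51 in the very low and 1.68 to 2.96 in the very high class. That of 7 proliferation genes was 2.82 to 4.77 in the very low, 4.29 to 5.15 in the low, 3.72 to 4.02 in the high and 3.28 to 3.53 in the very high class.

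The remaining lists had no gene past the threshold in either contrast. For high against low the median log2 fold change was -0.35 over 20 epithelial core genes, 0.48 over 6 markers given for surface epithelium, -1.60 over 2 gland markers, -1.55 over 7 ciliated cell markers, -0.46 over 9 stromal markers, 0.18 over 10 endothelial markers and 4.67 over 12 smooth muscle markers. For very high against very low the medians were -0.28, 0.35, 3.32, -0.08, -0.70, 0.41 and -0.35 in the same order. The 2 gland markers went opposite ways for high against low, with 0.32 for SOX17 and -3.52 for SERPINA14. Of the 6 surface epithelium markers 5 estimates were above 0 and 1 below for high against low, where all 4 genes were below. For very high against very low 3 were above 0 and 3 below. IHH, a hedgehog ligand, had 22.2 ± 37.0, 174.5 ± 122, 309.9 ± 199.6 and 162.4 ± 83.7 CPM (SD, n = 3 each), and MSX1, a homeobox factor, had 271.6 ± 244, 520.5 ± 253, 692.6 ± 175 and 487.3 ± 20.3 CPM. WNT7A, a Wnt ligand picked after its values were seen, had 20.3 ± 17.6, 1.73 ± 0.73, 2.54 ± 2.69 and 1.52 ± 1.82 CPM, and LGR5, a receptor picked likewise, had 71.3 ± 110.2, 29.7 ± 37.6, 16.3 ± 11.5 and 12.3 ± 9.49 CPM. FGFR2 had 122.1 ± 39.3, 46.5 ± 18.5, 118.7 ± 26.7 and 110.9 ± 39.6 CPM, and LGR4 had 88.8 ± 68.3, 123.4 ± 55.0, 152.1 ± 40.7 and 168.7 ± 50.2 CPM.

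**Figure D4:**
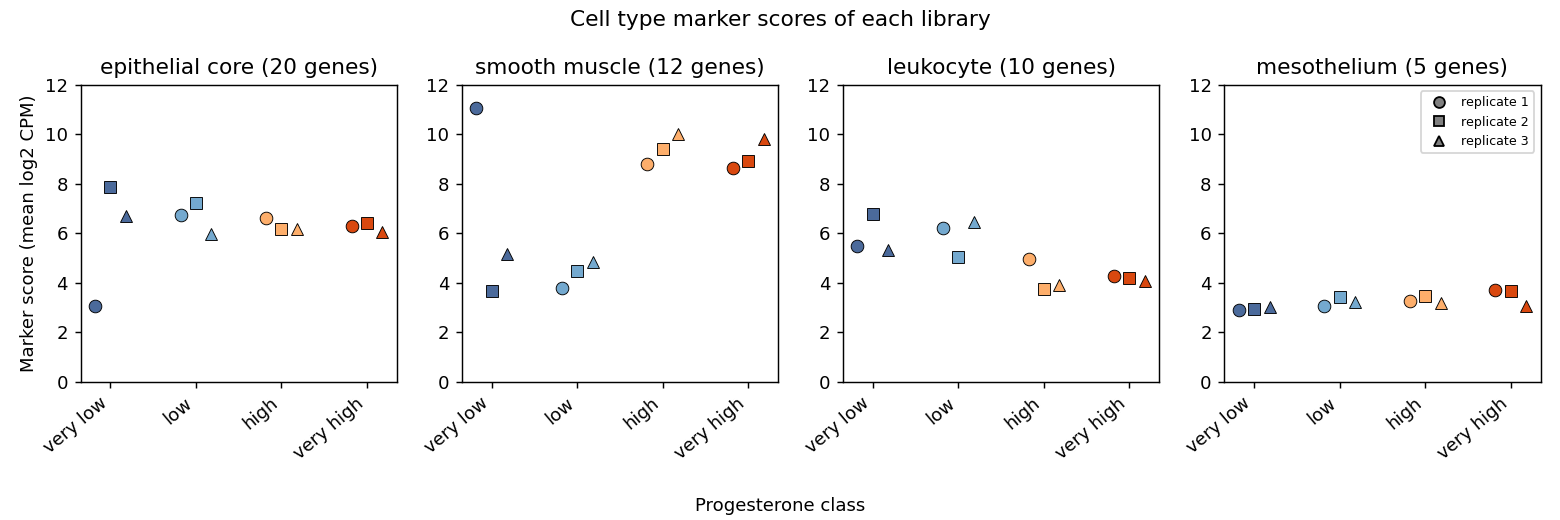
Marker scores (mean log2 CPM of the tested genes of a list) of each library by class, with replicates as symbols. The smooth muscle score is 11.1 in very low replicate 1 and 3.68 to 5.17 in the other very low and the low libraries, while the mesothelium score stays between 2.91 and 3.70 in all libraries.

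A few genes had profiles much like these 4. Among the 10238 genes whose log2 CPM averaged 1 or more, the distance was the root mean square difference of centred log2 CPM over the 12 libraries, whose median to the mean profile of the 4 was 2.08. The nearest were CYP2S1, a cytochrome P450 (0.57), GABRP, the pi subunit of the GABA-A receptor (0.66), UPK3BL, a uroplakin 3B relative (0.73), VILL, a villin-like actin-binding protein (0.76), the metalloproteinase MMP7 (0.81) and GCNT3, an enzyme that branches mucin sugars (0.83). UPK3BL and UPK3B are close relatives, and reads could be split between them.

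Gene by gene, TNS4 was nearest to GABRP (0.73), UPK3BL (0.79) and MMP7 (0.83). UPK1B was nearest to UPK3BL (0.73), then to CYP2S1 (1.12) and the macrophage elastase MMP12 (1.31). MSLN was nearest to GABRP (0.66), GCNT3 (0.74) and SPTSSB, a subunit of the first enzyme of sphingolipid synthesis (0.74). KRT7 was nearest to VILL (0.52), GCNT3 (0.57) and CYP2S1 (0.58). In CYP2S1 the class means were 26.1 ± 19.5, 12.3 ± 4.16, 3.22 ± 1.67 and 1.69 ± 1.004 CPM (SD, n = 3 each). UPK3BL had 201.3 ± 160, 99.9 ± 61.4, 30.3 ± 22.2 and 7.95 ± 9.33 CPM, and MMP7 had 127.8 ± 169, 61.3 ± 26.9, 6.05 ± 3.04 and 2.85 ± 1.91 CPM. These genes were found by their likeness to the 4, so no test is given for them.

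**Figure D5:**
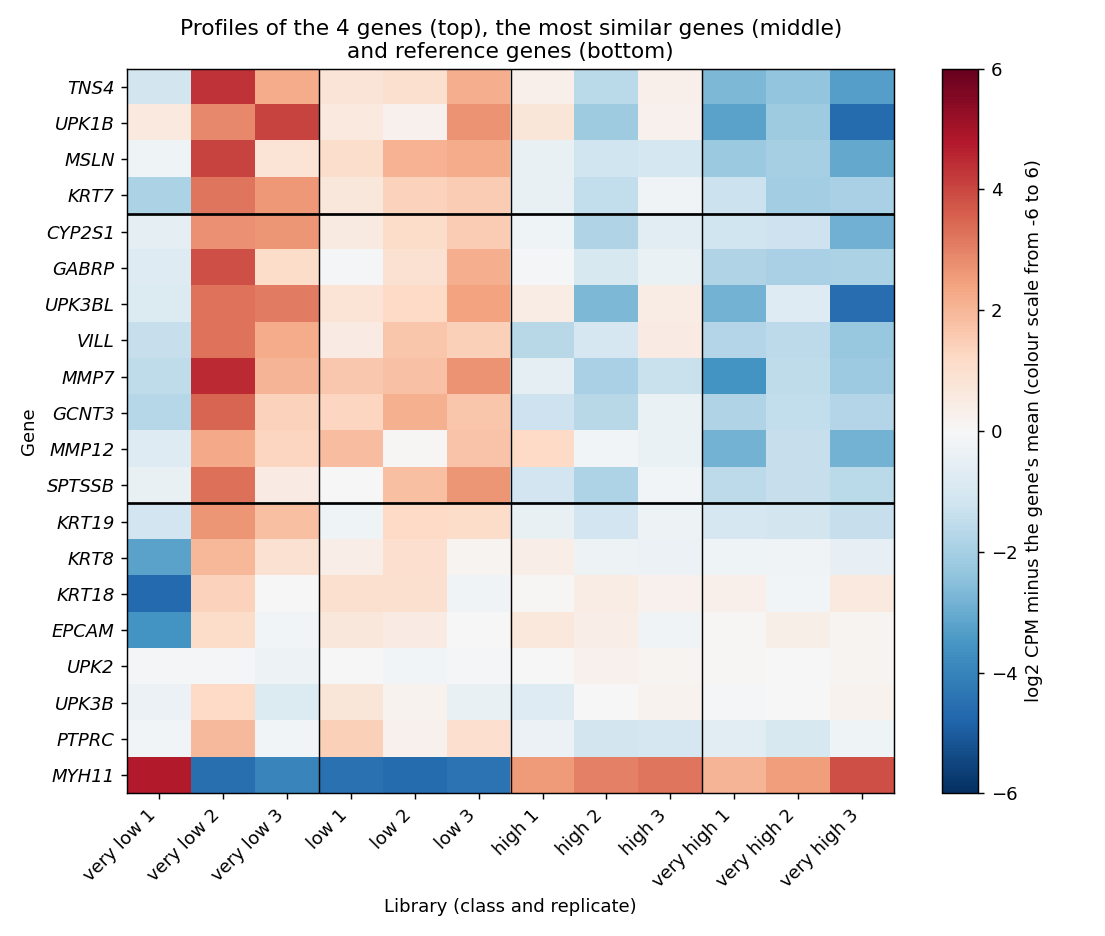
Centred log2 CPM (colour) of the 4 genes, of the 8 genes with the most similar profiles and of 8 reference genes in the 12 libraries, ordered by class. Very low replicates 2 and 3 and the low libraries are mostly above the mean of each similar gene and the high and very high libraries mostly below it, whereas UPK2 is nearly level and the smooth muscle myosin MYH11 is high in very low replicate 1 and the 6 high and very high libraries.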

How the data were processed

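Endometrial RNA of 12 samples was extracted with Trizol, treated with DNase and made into stranded poly(A) libraries, which were pooled for paired-end sequencing, per the labels' protocols. FastQC 0.11.2, Trimmomatic 0.32 and the builds UMD3.1 and bosTau8 are named, per the submitters' processing notes. The sources used here give no aligner, counting program, strand setting or annotation. The authors deposited raw counts per gene symbol, 1 column per sample under its title, neither scaled nor pooled.

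Genes were kept by filterByExpr (count minimum 10) and scaled by TMM (factors 0.728 to 1.11). The edgeR 4.0.16 quasi-likelihood test (R 4.3.3) was fitted to all 12 libraries with 1 mean per class and 8 residual degrees of freedom. Adjustment followed Benjamini and Hochberg over 10959 genes, with a threshold of 0.05. Log2 CPM used a prior count of 2. Alternatives were DESeq2 1.42.0, limma-voom (limma 3.58.1), other scaling, no filter, thinning, a replicate block, tissue scores as covariates, and leaving out single libraries or the classes not compared. Counts were also simulated for high against low over 10959 genes, with the changed genes drawn from those at or above the median mean CPM. Apart from these changes each gene had the same mean CPM in all 12 libraries. The test recovered 78% of 100 such genes changed 4-fold and 7% of 100 changed 2-fold, with 2 false calls. Recovery of genes below that median was not simulated. Nor was recovery computed for the 4 genes themselves, whose standard errors for high against low were 0.86 to 1.04, so these rates do not apply to them. All 12 pairs of replicates of 1 class differed beyond sampling error of the counts (ratio of chi-square to degrees of freedom from 22.1 to 288.2).

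The 4 genes and the 16 gene lists were chosen with earlier results of these data known. Named list genes were those past the threshold (up to 4 by p), or else the 2 with the highest CPM, and similar genes the nearest 6 to the mean profile and 3 to each gene, locus-number symbols left out. All other genes named were chosen after their values were seen. No sequence is shown.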

Additional observations from a re-analysis of the deposited data

How the results depend on the processing

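No call on the 4 genes for high against low changed under any of 21 alternatives. With the smooth muscle score as covariate the log2 fold changes reversed to 1.71 for TNS4, 0.31 for UPK1B and 1.39 for KRT7, and MSLN kept its direction at -0.27. That score separates these classes, so class and smooth muscle content cannot be told apart here. In the same fit the very high against very low values were -3.74 for TNS4, -3.02 for MSLN and -1.46 for KRT7. Leaving out 1 library gave -5.57 to -2.72 for MSLN in that contrast, the smallest without very low replicate 2. TNS4 did not pass the filter in the fit of those 6 libraries alone.

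Counts of called genes depended on the fit. For high against low none passed with edgeR on all 12 libraries, 241 with DESeq2 (15 of them listed genes), 26 in a fit of these 6 libraries (6 listed), 72 with the epithelial score (12 listed), 40 with the smooth muscle score (10 listed) and 0 to 76 with 1 library left out (0 to 11 listed), the 76 without very low replicate 1. For very high against very low 167 passed (2 listed), 1510 with DESeq2 (25 listed), 1 with limma-voom (0 listed), 0 in a fit of 6 libraries (0 listed, 1823 genes at an unadjusted p under 0.05), 1268 with the epithelial score (44 listed), 1805 with the smooth muscle score (35 listed) and 0 to 643 with 1 library left out (0 to 32 listed), 0 without very high replicate 1 or 2 and 643 without very low replicate 1.

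With the replicate number as a block 0 genes passed in very high against very low (0 listed, 2292 at an unadjusted p under 0.05 by edgeR). The 4 genes had -1.39 (TNS4), -1.25 (UPK1B), -2.61 (MSLN) and -1.80 (KRT7) for high against low in the blocked fit. Same-numbered samples deviated together in few pairs (correlations -0.30 to 0.29, over 0.1 in 3 of 18). Differences in tissue make-up enter the same deviations, so these correlations cannot show whether a number stands for a shared cow or batch. Depth limits TNS4 most, with 1 to 4 reads in each very high library.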
